A study of Mus musculus with 18 samples.

Results

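Mouse dendritic cells were set beside naive helper (CD4) T cells of the same series, on 3 BeadChip arrays of each, titled DC_1 to DC_3 and Naive CD4_1 to Naive CD4_3 and together 6 of the series' 18 arrays. Both groups were labelled as wild type, strain C57/BL6, male and female together, with no treatment named, and the series' design describes 3 biological replicates per cell type. The labels give neither the organ of origin nor the sort or culture, nor the age of the mice. Genes entered the comparison if a probe carrying 1 gene symbol was detected (detection p under 0.01) on at least 3 of the 6 arrays, which left 8929 of 19057 genes with a named probe. The study profiled DNA methylation beside expression in immune cells and brain, and the question here was which genes separate an antigen-presenting cell from the resting helper T cell that it primes.

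Dendritic cells take up antigen, sense microbial products and show processed peptides on MHC molecules to T cells, together with costimulatory ligands and cytokines. Conventional dendritic cells fall into a type known for cross-presenting antigen of dead cells (cDC1), which depends on Batf3 and Irf8, and a type that mainly presents to CD4 T cells (cDC2), which depends on Irf4; plasmacytoid dendritic cells, which depend on Tcf4, make type I interferon. Naive CD4 T cells recirculate in a quiescent state held by survival signals through the interleukin 7 receptor and by factors such as Foxo1, and express the T cell receptor with its CD3 chains and signalling proteins.

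All values are background-corrected, quantile-normalized signals on a log2 scale, where undetected probes lie near 4.2 to 5.1. A gene passed at a limma adjusted p under 0.05 (Benjamini-Hochberg, two-sided) and a log2 difference, dendritic cells minus naive CD4 T cells, of at least 1 in size, that is, 2-fold; a gene that did not pass may still have met the adjusted p. In all 1528 genes were higher in dendritic cells, 17.1% of those tested, and 1171 were lower, 13.1%; the median difference of all genes tested was log2 -0.15. With median scaling, which moved that median to 0.17, 1925 genes were higher and 649 lower, so that 74.8% of passing genes were higher, against 56.6% here. A gene detected in 1 group alone could enter only through the group where it is bright, and 843 genes were detected on all dendritic cell arrays and no naive array, against 245 the other way. Among the 6963 genes detected on all 6 arrays, 664 were higher (9.54%) and 932 lower (13.4%). Where no array of the dimmer group detected a probe, the difference is given as a lower bound, "at least N-fold", taken between the brighter group's mean and the lowest signal called detected on the dim arrays.

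Between 15204 and 16259 probes were detected per dendritic cell array and 14614 to 15161 per naive array, and precision is limited by there being 3 arrays a group. Arrays correlated across genes at r = 0.971 to 0.993 within dendritic cells, 0.987 to 0.991 within naive cells and 0.709 to 0.762 between the groups; genes are not independent replicates. Background signal before correction was 46.6 to 48.0 on the dendritic cell arrays and 36.1 to 37.6 on the naive arrays, a split that cannot be told apart from the groups. The arrays numbered 3 stood apart for immediate early and heat shock genes: dendritic cell array 3 was low and naive array 3 was high, as described with those genes, and naive array 3 also carried traces of myeloid genes. With both arrays numbered 3 left out, an alternative chosen after seeing the data, 1539 genes were higher and 1331 lower.

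The label was first set against markers of dendritic cells. Of 9 listed, 7 were detected on all 3 dendritic cell arrays, and Flt3 and Ccl22 on none; on the naive arrays 8 of 9 were undetected throughout, the exception being Siglech, a lectin of plasmacytoid dendritic cells. Clec9a, the cDC1 receptor for actin exposed by dead cells, stood at log2 9.76, 9.95 and 9.84 in dendritic cells, against 4.21, 4.28 and 4.21 in naive CD4 T cells. Clec9a was at least 27.3-fold higher in dendritic cells, and 2 of its 3 tested probes passed as higher. Because it entered the comparison through the dendritic cell arrays alone, a p-value adds no support for the label and none is given. The transcription factor gene Batf3 stood at log2 9.28, 9.61 and 9.80 in dendritic cells, against 4.27, 4.34 and 4.36 in naive CD4 T cells, and was at least 22.4-fold higher. Lef1, a factor of the T lineage that acts downstream of Wnt signalling, had log2 4.69, 4.79 and 4.95 in dendritic cells, against 9.80, 9.66 and 9.79 in naive CD4 T cells; it was undetected on all 3 dendritic cell arrays and at least 28.1-fold lower there. For all 3 genes the replicates of a group lay within log2 0.6 of each other and the groups were far apart.

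The sequences just upstream of start sites are shown for 6 of the genes the comparison turns on, because the larger differences went with CpG-poor promoters, as given further on. Each run holds the 250 bases before the annotated start, from RefSeq on build GRCm38.p6, read 5′ to 3′ on the gene's strand, with CpG pairs in capitals. The first 3 genes were higher in dendritic cells and the last 3 lower; Clec9a lies at chr6:129408612-129408861 (plus strand), Batf3 at chr1:191098164-191098413 (plus), the MHC class II chain gene H2-Eb1 at chr17:34305617-34305866 (plus), Lef1 at chr3:131110047-131110296 (plus), the growth factor-binding protein gene Igfbp4 at chr11:99040994-99041243 (plus) and the T cell receptor adaptor gene Trat1 at chr16:48772063-48772312 (minus).
Clec9a: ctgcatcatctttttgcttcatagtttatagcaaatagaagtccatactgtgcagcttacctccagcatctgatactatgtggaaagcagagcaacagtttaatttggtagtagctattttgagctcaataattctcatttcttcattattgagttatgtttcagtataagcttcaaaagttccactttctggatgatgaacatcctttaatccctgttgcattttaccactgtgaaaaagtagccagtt
Batf3: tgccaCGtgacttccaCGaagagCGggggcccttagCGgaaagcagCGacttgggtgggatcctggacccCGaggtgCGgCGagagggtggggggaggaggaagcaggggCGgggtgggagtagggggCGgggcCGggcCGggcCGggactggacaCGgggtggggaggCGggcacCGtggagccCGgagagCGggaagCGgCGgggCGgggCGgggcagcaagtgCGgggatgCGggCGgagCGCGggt
H2-Eb1: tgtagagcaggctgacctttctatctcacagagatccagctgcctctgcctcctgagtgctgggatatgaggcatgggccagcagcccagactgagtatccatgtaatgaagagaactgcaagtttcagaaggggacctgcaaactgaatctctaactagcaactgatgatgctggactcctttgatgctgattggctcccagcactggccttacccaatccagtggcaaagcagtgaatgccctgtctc
Lef1: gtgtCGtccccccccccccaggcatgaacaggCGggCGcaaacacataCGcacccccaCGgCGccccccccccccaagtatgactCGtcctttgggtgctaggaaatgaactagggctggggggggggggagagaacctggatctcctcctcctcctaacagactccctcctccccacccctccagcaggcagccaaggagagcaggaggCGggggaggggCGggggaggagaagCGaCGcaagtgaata
Igfbp4: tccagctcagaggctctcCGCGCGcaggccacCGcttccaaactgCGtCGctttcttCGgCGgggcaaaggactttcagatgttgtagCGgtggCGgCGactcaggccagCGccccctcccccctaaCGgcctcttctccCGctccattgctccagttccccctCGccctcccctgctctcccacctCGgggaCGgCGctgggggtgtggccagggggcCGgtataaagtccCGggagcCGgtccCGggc
Trat1: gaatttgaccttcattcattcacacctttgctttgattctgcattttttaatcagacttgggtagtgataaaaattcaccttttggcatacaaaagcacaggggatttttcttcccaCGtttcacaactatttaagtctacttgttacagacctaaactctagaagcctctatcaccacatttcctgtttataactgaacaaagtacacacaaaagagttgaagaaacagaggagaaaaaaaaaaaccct
Clec9a and H2-Eb1 held 0 CpG pairs in these 250 bases, Trat1 1, Lef1 11, Igfbp4 22 and Batf3 27. Both directions therefore held CpG-poor and CpG-rich starts among these 6 genes.

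**Figure D1:**
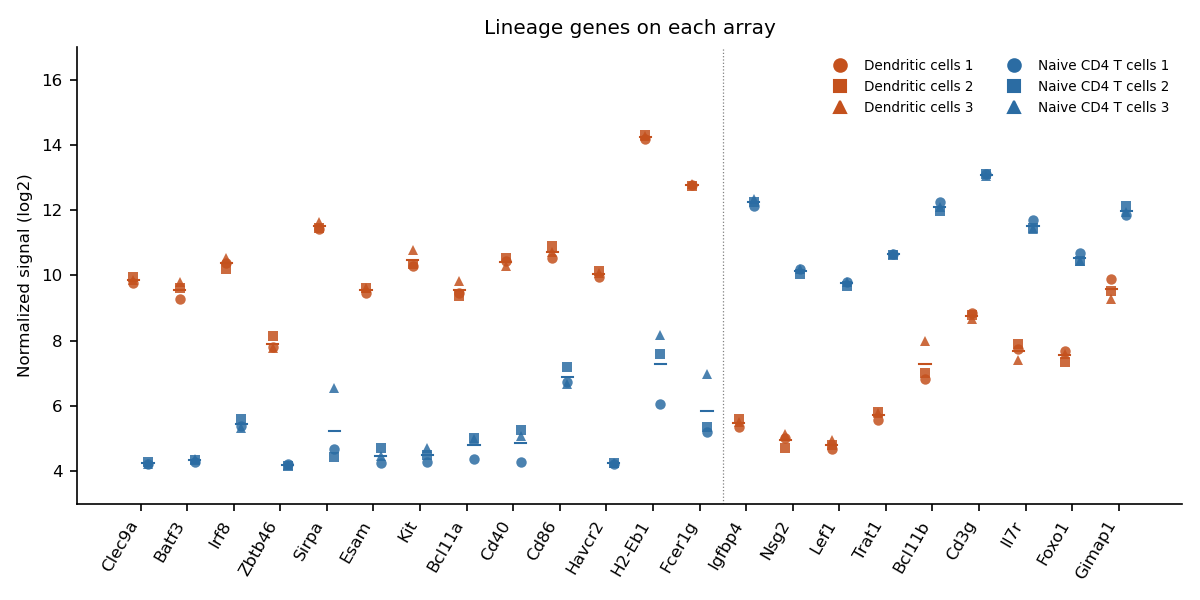
Normalized log2 signal (y axis) of 22 genes (x axis) on each array, dendritic cells in orange left of naive CD4 T cells in blue, with a marker shape per replicate and a line at the group mean. Genes left of the dotted line were higher in dendritic cells and those right of it lower; Sirpa, H2-Eb1 and Fcer1g show naive array 3 above the other naive arrays.

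Genes of the conventional dendritic cell lineage were higher in 13 of 14 tested, with a median log2 difference of 3.20, and 8 of the 14 were detected in dendritic cells alone; of the 5 detected on all 6 arrays 4 were higher. Kit, the stem cell factor receptor, stood at log2 10.30, 10.35 and 10.76 in dendritic cells, against 4.27, 4.50 and 4.72 in naive CD4 T cells, at least 42-fold higher. Bcl11a, a zinc finger factor also used by B cells and plasmacytoid dendritic cells, was at least 22.3-fold higher. Irf8 was detected in both groups, at log2 10.36, 10.20 and 10.52 in dendritic cells, against 5.39, 5.59 and 5.32 in naive CD4 T cells, a difference of 4.93 ± 0.23 (SE; limma adjusted p = 1.56e-12). These 3 genes showed no overlap between the groups, which was the common case, as groups overlapped for 2666 of the 8929 genes tested. Id2, an inhibitor of E proteins, did overlap, with naive array 3 at 11.13 beside 9.87 and 9.62 on the other naive arrays. Id2 averaged log2 11.20 ± 0.14 in dendritic cells and 10.21 ± 0.81 in naive CD4 T cells (SD, n = 3 each) and missed the 2-fold threshold narrowly (adjusted p = 0.00262). These values are of its brightest probe, and 2 of its 3 tested probes passed as higher. Without both arrays numbered 3 Id2 passed, at 1.41 (limma adjusted p = 2.61e-06). Zbtb46, a factor of conventional dendritic cells, stood at log2 7.80, 8.12 and 7.78 in dendritic cells, against 4.23, 4.16 and 4.19 in naive CD4 T cells, at least 7.07-fold higher.

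Most genes listed for each conventional type were higher, but many could enter only through the dendritic cell arrays. Of 11 cDC1 genes tested, 10 were higher and 1, Ly75, did not pass. In all 8 of the 11 were detected in dendritic cells alone, and of the 3 detected on all 6 arrays 2 were higher. Septin3, a cytoskeletal GTPase, was at least 16.7-fold higher, and Itgae, the integrin chain CD103, differed by 3.78 ± 0.27 (SE; limma adjusted p = 6.46e-10). Ly75, the endocytic receptor DEC-205, stood at log2 5.84, 5.73 and 5.84 in dendritic cells, against 6.11, 6.10 and 6.003 in naive CD4 T cells, a difference of -0.27 ± 0.12 that did not pass. Of 10 cDC2 genes, 9 were higher and Cd4 was lower. Here 6 of the 10 were detected in dendritic cells alone, and of the 2 detected on all 6 arrays 1 was higher and 1 lower. Sirpa, the inhibitory receptor for CD47, reached log2 11.42, 11.44 and 11.64 in dendritic cells, against 4.69, 4.42 and 6.56 in naive CD4 T cells, a difference of 6.28 ± 0.34 (SE; limma adjusted p = 1.43e-11); it was detected on naive array 3 alone of the naive arrays. Esam, an adhesion molecule of splenic cDC2, was at least 22.3-fold higher, and Clec4a4, the lectin recognised by the antibody 33D1, at least 11.2-fold. Cd4, which some cDC2 share with helper T cells, had log2 5.14, 5.22 and 5.10 in dendritic cells, against 8.84, 7.87 and 8.15 in naive CD4 T cells, a difference of -3.13 ± 0.19 (SE; limma adjusted p = 6.51e-11).

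Of 10 plasmacytoid genes tested, 2 were detected in dendritic cells alone. Among the 7 detected on all 6 arrays 2 were higher and 2 lower. The plasmacytoid list was split as a whole too, with 5 of 10 tested members higher, 2 lower and 3 not passing. Tcf4, its master regulator, stood at log2 10.43, 10.21 and 9.56 in dendritic cells, against 6.48, 6.56 and 6.73 in naive CD4 T cells, a difference of 3.47 ± 0.19 (SE; limma adjusted p = 1.49e-11). Ly6d, a surface protein shared with B cell progenitors, differed by 4.20 ± 0.22, and Lair1, a collagen receptor, by 2.24 ± 0.22. Pacsin1, an endocytic adaptor, went the other way at log2 6.73, 6.86 and 6.91 in dendritic cells, against 9.999, 9.81 and 10.01 in naive CD4 T cells. Siglech, at log2 5.79, 5.83 and 6.45 in dendritic cells, against 5.51, 5.41 and 5.23 in naive CD4 T cells, and the interferon regulator Irf7, at log2 7.25, 6.98 and 7.24 in dendritic cells, against 7.63, 7.41 and 7.33 in naive CD4 T cells, did not pass. Of 15 maturation genes 12 were higher, with a median of log2 3.73; the amino acid oxidase gene Il4i1 differed by 6.29 ± 0.25 (SE; limma adjusted p = 1.82e-13) and Marcks, an actin-linked kinase substrate, by 4.82 ± 0.17. Ccr7, which guides mature dendritic cells and naive T cells alike to lymph nodes, was lower, at log2 7.65, 7.64 and 6.65 in dendritic cells, against 8.81, 8.81 and 8.64 in naive CD4 T cells. Birc2, an inhibitor of apoptosis, differed by -0.32 ± 0.11 and did not pass. The maturation chemokine Ccl22 was undetected in dendritic cells.

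All 12 tested MHC class II genes were higher in dendritic cells, with a median log2 difference of 5.996, and so were all 8 of them detected on all 6 arrays. H2-Eb1 stood at log2 14.18, 14.30 and 14.26 in dendritic cells, against 6.04, 7.59 and 8.17 in naive CD4 T cells, and H2-Ab1 at log2 14.12, 14.26 and 14.52 in dendritic cells, against 6.31, 8.19 and 8.84 in naive CD4 T cells. Naive array 1 was the lowest naive array for both, and the dendritic cell arrays were close together. The differences were 6.98 ± 0.34 (SE; limma adjusted p = 2.88e-12) for H2-Eb1, 6.52 ± 0.43 for H2-Ab1, 7.17 ± 0.24 for H2-Aa and 6.43 ± 0.41 for H2-DMb2, a chain of the peptide editor H2-DM. Ciita, the coactivator that switches on these genes, had log2 10.68, 10.82 and 11.29 in dendritic cells, against 4.27, 4.99 and 4.98 in naive CD4 T cells. MHC class I and cross-presentation genes, by contrast, were higher in 0 of 18 and lower in 1, with a median of log2 0.17 and all 18 detected on all 6 arrays. The other 17 stayed under 2-fold, 8 of them with a limma adjusted p under 0.05, among them Tap1, which carries peptides into the endoplasmic reticulum, at -0.84 ± 0.19 (SE; limma adjusted p = 0.000769), and the heavy chain H2-D1, at -0.52 ± 0.14 (SE; limma adjusted p = 0.00249). B2m, the light chain of class I, was near the top of the scale in both groups, at log2 13.84, 13.69 and 13.77 in dendritic cells, against 13.47, 13.47 and 13.52 in naive CD4 T cells. The 1 that passed was Nlrc5, the class I transactivator, at log2 9.08, 8.84 and 8.74 in dendritic cells, against 10.27, 10.04 and 10.07 in naive CD4 T cells, a difference of -1.24 ± 0.15 (SE; limma adjusted p = 9.66e-07), which fell short of 2-fold with median scaling.

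Uptake and degradation genes were higher in part. Of 20 lysosomal genes, 10 were higher and 1 lower, with 9 short of the threshold. The aminopeptidase Ctsh stood at log2 11.62, 11.72 and 11.89 in dendritic cells, against 4.58, 5.51 and 6.07 in naive CD4 T cells, and Cst3, the secreted protease inhibitor cystatin C, at log2 14.02, 14.05 and 14.06 in dendritic cells, against 9.98, 9.78 and 9.91 in naive CD4 T cells. They differed by 6.36 ± 0.25 (SE; limma adjusted p = 1.56e-13) and 4.16 ± 0.11 (SE; limma adjusted p = 1.45e-15). The tetraspanin Cd63 was at least 15.8-fold higher and the carboxypeptidase Ctsz differed by 2.84 ± 0.18, while Cstb, a cytosolic inhibitor, differed by 0.41 ± 0.13 and did not pass. The protease Ctso was the 1 lower member, with a difference of -1.06. All 12 tested Fc and phagocytic receptor genes were higher, and 6 others with a probe were not detected on enough arrays. Of the 12, 4 were detected in dendritic cells alone and could enter only through those arrays, and 4 on all 6 arrays. Fcer1g, the chain through which activating Fc receptors signal, had log2 12.75, 12.75 and 12.80 in dendritic cells, against 5.18, 5.34 and 6.99 in naive CD4 T cells, and the IgG receptor Fcgr4 had log2 11.21, 11.24 and 11.20 in dendritic cells, against 4.22, 4.22 and 5.55 in naive CD4 T cells. For both, naive array 3 lay above the other naive arrays by over log2 1, and the dendritic cell arrays lay close together. Tyrobp, the adaptor DAP12, differed by 6.25 ± 0.19 (SE; limma adjusted p = 4.94e-15). Without both arrays numbered 3 the differences were 7.49 for Fcer1g, 7.01 for Fcgr4 and 6.88 for Sirpa.

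**Figure D2:**
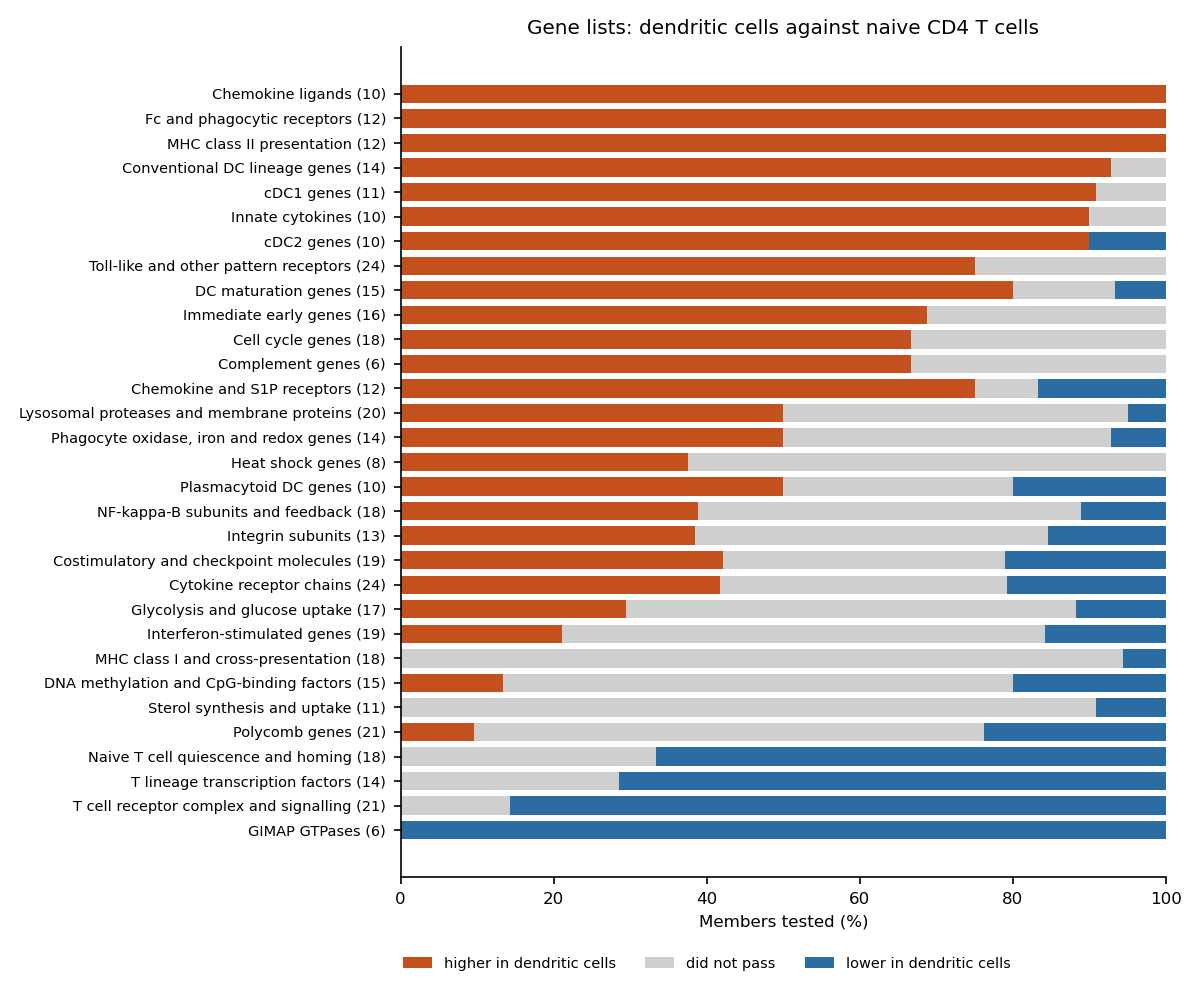
Share of tested members (x axis, percent) of each gene list (y axis, number tested in brackets) that were higher in dendritic cells, did not pass, or were lower. All 12 MHC class II members were higher and all 6 GIMAP members lower, whereas 17 of 18 MHC class I members did not pass.

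Pattern receptors were higher in 18 of 24 tested and lower in 0, and in 6 of the 10 detected on all 6 arrays. Ly86, which pairs with Cd180 to tune lipopolysaccharide responses, stood at log2 10.83, 10.67 and 10.76 in dendritic cells, against 4.39, 5.21 and 5.46 in naive CD4 T cells, a difference of 5.73 ± 0.20 (SE; limma adjusted p = 3.38e-14). Unc93b1, which carries nucleic acid-sensing receptors to endosomes, differed by 5.07 ± 0.18, and Tlr13, the sensor of bacterial ribosomal RNA in mice, was at least 15.4-fold higher. The lectin Clec4d was at least 18.5-fold higher. The cytosolic sensor Nod1, which detects bacterial cell wall fragments, differed by 2.40 ± 0.13 (SE; limma adjusted p = 2.16e-11), whereas Sting1 and Ddx58 differed by -0.32 and -0.65 without reaching 2-fold. The adaptor Myd88 stood at log2 11.17, 11.36 and 11.64 in dendritic cells, against 10.48, 10.80 and 10.74 in naive CD4 T cells, a difference of 0.72 that met the adjusted p (0.000214) but not 2-fold. Myd88 had 2 tested probes, of which 1 passed as higher.

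Chemokine genes gave some of the largest differences. All 10 tested chemokine ligand genes were higher in dendritic cells, 8 of them detected there alone, and the other 10 listed were not detected on enough arrays. Ccl4 stood at log2 13.59, 13.62 and 11.73 in dendritic cells, against 4.36, 4.61 and 5.14 in naive CD4 T cells, and Ccl3 at log2 12.001, 11.92 and 9.92 in dendritic cells, against 4.22, 4.49 and 4.78 in naive CD4 T cells. Dendritic cell array 3 was lower than the other dendritic cell arrays for both by nearly log2 2. Ccl3 was at least 73.7-fold higher, and the difference for Ccl4 was 8.28 ± 0.46 (SE; limma adjusted p = 2.11e-11). Ccl5 differed by 7.08 ± 0.42, and Cxcl9, an interferon-induced ligand of CXCR3, was at least 55.8-fold higher with arrays at 10.79, 11.08 and 10.77. Xcl1, the ligand of the cDC1 receptor Xcr1 and in mice a product of NK and CD8 T cells, was also higher, at log2 10.44, 10.47 and 9.62 in dendritic cells, against 4.22, 4.33 and 4.76 in naive CD4 T cells. Of 12 chemokine and S1P receptor genes 9 were higher, 2 lower (Ccr7 and S1pr4) and 1, Cxcr6, did not pass. Cxcr2, a receptor of neutrophils, was at least 11.3-fold higher, Cx3cr1 at least 8.58-fold higher, and Ccr6 differed by 4.10 ± 0.15 (SE; limma adjusted p = 4.2e-14). The atypical receptor Ccrl2 had log2 10.49, 10.38 and 7.89 in dendritic cells, against 5.04, 5.37 and 4.93 in naive CD4 T cells.

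Among innate cytokine genes 9 of 10 tested were higher, and 7 others with a probe were not detected on enough arrays. Of the 10, 5 were detected in dendritic cells alone, and of the 3 detected on all 6 arrays 2 were higher. Il1b, which encodes interleukin 1 beta, stood at log2 13.60, 13.52 and 12.61 in dendritic cells, against 4.41, 4.43 and 5.45 in naive CD4 T cells, a difference of 8.48 ± 0.29 (SE; limma adjusted p = 1.77e-14). Ebi3, a subunit of interleukins 27 and 35, was at least 14.2-fold higher, Il15, which sustains NK and memory CD8 T cells, at least 12.7-fold, and Il18 differed by 2.94 ± 0.29; Tgfb1 had overlapping groups and differed by -0.36 ± 0.25. Cytokine receptor chains went both ways, with 10 of 24 higher, 5 lower and 9 not passing. Among the 15 detected on all 6 arrays 3 were higher and 4 lower. The myeloid growth factor receptors were higher: Csf2ra by 4.28 ± 0.22, Csf1r by 4.19 ± 0.24 and Csf3r at least 16.9-fold. The decoy receptor Il1r2 was at least 9.78-fold higher. The 5 lower chains were Il7r, Il27ra, Il2ra, Tgfbr2 and Il6ra, at differences of -3.85, -2.56, -2.08, -1.48 and -1.27. Tgfbr1 overlapped between the groups, at log2 9.59, 9.60 and 9.07 in dendritic cells, against 9.39, 9.47 and 8.84 in naive CD4 T cells.

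Of 19 costimulatory and checkpoint genes tested, 8 were higher, 4 lower and 7 did not pass, against 17.1% higher and 13.1% lower of all genes tested. In all 4 of the 19 were detected in dendritic cells alone. Among the 11 detected on all 6 arrays 2 were higher and 4 lower, against 9.54% and 13.4% of all such genes. Havcr2, the checkpoint receptor TIM-3, was at least 31.3-fold higher, at log2 9.95, 10.12 and 10.06 in dendritic cells, against 4.22, 4.24 and 4.25 in naive CD4 T cells. Cd40, likewise a receptor, differed by 5.55 ± 0.18 (SE; limma adjusted p = 1.45e-14). The CD28 ligand Cd86 differed by 3.85 ± 0.23, and Cd80, the other CD28 ligand, was at least 8.05-fold higher. The 4 lower genes encode receptors found on T cells, Cd28, Cd27, Icos and Tnfrsf18, at -3.28, -2.99, -1.61 and -1.61. Btla was bright in both, at log2 9.81, 9.96 and 10.01 in dendritic cells, against 9.63, 9.52 and 9.40 in naive CD4 T cells, and did not pass. Of 18 NF-kappa-B genes 7 were higher and 2 lower, Ikbke and Tnip1. The share lower was near the 13.1% of all genes tested. The kinase Ikbke had log2 5.90, 6.13 and 6.11 in dendritic cells, against 10.55, 10.04 and 10.18 in naive CD4 T cells, a difference of -4.21 ± 0.17 (SE; limma adjusted p = 2.81e-13). The subunit Relb differed by 1.75 ± 0.14 (SE; limma adjusted p = 3.66e-09), while the subunit Rela did not pass, at log2 10.43, 10.59 and 10.77 in dendritic cells, against 10.54, 10.78 and 10.72 in naive CD4 T cells. Interferon-stimulated genes were higher in 4 of 19 and lower in 3, with 12 not passing. These shares are near the 17.1% higher and 13.1% lower of all genes tested. Ifitm3, a membrane protein that restricts virus entry, differed by 5.91 ± 0.20 (SE; limma adjusted p = 1.73e-14) and Rsad2, viperin, by 2.35 ± 0.44, but Igtp, an interferon gamma-induced GTPase, had log2 8.37, 8.30 and 8.55 in dendritic cells, against 11.33, 11.21 and 11.06 in naive CD4 T cells and Ifit2 differed by -2.05 ± 0.27. Irf1 did not pass, at log2 12.08, 11.98 and 11.93 in dendritic cells, against 12.20, 12.44 and 12.20 in naive CD4 T cells.

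T cell receptor and signalling genes were lower in dendritic cells in 18 of 21 and higher in 0, with a median log2 difference of -3.28; 18 of the 21 were detected on all 6 arrays, 15 of these lower. Cd3g, a chain of the CD3 complex, had log2 8.85, 8.80 and 8.65 in dendritic cells, against 13.11, 13.11 and 13.05 in naive CD4 T cells, a difference of -4.32 ± 0.20 (SE; limma adjusted p = 1.94e-12). Cd6, a coreceptor, had log2 7.58, 7.75 and 8.89 in dendritic cells, against 12.46, 12.43 and 12.54 in naive CD4 T cells, where dendritic cell array 3 was the highest of its group by over log2 1. Trat1 differed by -4.93 ± 0.16 (SE; limma adjusted p = 1.64e-14) and the adaptor Sit1 by -4.72 ± 0.28; Fyb, an adaptor that myeloid cells also use, differed by -0.90 ± 0.21 and did not pass. The naive T cell markers Cd3e, Cd3g, Bcl11b, Thy1, Trat1 and Igfbp4 were nonetheless detected on all 3 dendritic cell arrays, and the summed signal of the 7 markers was log2 10.7 to 11.2 in dendritic cells, against 15.0 to 15.1 in naive cells. In bulk samples fewer cells of a type and less RNA per cell cannot be told apart.

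Transcription factors of the T lineage were lower in 10 of 14 and higher in 0. Bcl11b, which commits progenitors to the T lineage, stood at log2 6.83, 7.002 and 7.998 in dendritic cells, against 12.25, 11.97 and 12.09 in naive CD4 T cells, with dendritic cell array 3 the highest of its group. It differed by -4.83 ± 0.29 (SE; limma adjusted p = 7.34e-11), Foxo1 by -2.97 ± 0.16 (SE; limma adjusted p = 1.27e-11) and Ets1 by -2.64 ± 0.21 (SE; limma adjusted p = 2.96e-09). Zeb1 differed by -0.93 ± 0.16 and did not pass. Of 18 genes of naive T cell quiescence and homing, 12 were lower. Igfbp4 stood at log2 5.36, 5.58 and 5.51 in dendritic cells, against 12.14, 12.24 and 12.33 in naive CD4 T cells, a difference of -6.75 ± 0.23 (SE; limma adjusted p = 2.34e-14), the largest lower difference of the comparison. Nsg2 had log2 5.02, 4.69 and 5.14 in dendritic cells, against 10.19, 10.03 and 10.20 in naive CD4 T cells, Pdlim4 differed by -3.99 ± 0.19, and Il7r, the survival receptor, stood at log2 7.74, 7.89 and 7.39 in dendritic cells, against 11.69, 11.46 and 11.41 in naive CD4 T cells. Btg1, an antiproliferative gene, was bright in both groups and overlapped, at log2 13.45, 13.27 and 12.52 in dendritic cells, against 13.21, 13.16 and 13.19 in naive CD4 T cells. All 6 tested GIMAP genes, GTPases of lymphocyte survival that lie in 1 cluster, were lower and detected on all 6 arrays. They ranged from -2.40 for Gimap1 to -1.20 for Gimap7, and Gimap1 itself had log2 9.89, 9.52 and 9.28 in dendritic cells, against 11.84, 12.11 and 11.93 in naive CD4 T cells. The other large lower differences were Ampd1, AMP deaminase of muscle (at least 23.6-fold), the transporter Slc16a5 (at least 22.8-fold), Tmie (at least 17.3-fold), Trbv13-1, a T cell receptor beta variable segment (-4.63 ± 0.22), and, detected on all 6 arrays, Tnfrsf25 (-4.44 ± 0.23), Gpr83 (-4.36 ± 0.21), Ecm1 (-4.34 ± 0.17) and Dgka, a kinase that dampens diacylglycerol signals (-4.28 ± 0.17).

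Markers of other cell types moved with the groups, and their part in the results above was not tested. Granulocyte genes gave several of the largest differences: S100a8, a calprotectin subunit of neutrophils, had log2 14.08, 14.08 and 14.21 in dendritic cells, against 4.30, 4.27 and 6.97 in naive CD4 T cells. The neutrophil granule protein Ltf stood at 12.07, 13.24 and 13.50 in dendritic cells, at least 232-fold higher than in naive cells, where it was undetected. S100a9, the other calprotectin subunit, differed by 8.29 ± 0.29. The siderophore-binding protein Lcn2 was at least 152-fold higher and Retnlg at least 80.7-fold higher. Of 13 granulocyte markers 10 were detected on all dendritic cell arrays, with Mmp8 and Mpo undetected, and their summed signal was log2 15.3 to 15.8 in dendritic cells, against 8.1 to 8.8 in naive cells. Of 16 macrophage and monocyte markers 11 were detected, led by Lyz1 (7.78 ± 0.43) and Lyz2 (7.76 ± 0.36), while Vsig4, Marco, Siglec1 and Fn1 were undetected; the sums were 14.5 to 14.9 in dendritic cells and 8.5 to 9.7 in naive cells. Lyz1 and Lyz2 are near-identical copies and their probes may not tell them apart. Adgre1, the macrophage antigen F4/80, was at least 22.7-fold higher and the lectin Chil3 at least 40-fold.

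Lymphoid and erythroid markers were also present on the dendritic cell arrays. Of 8 markers of NK and CD8 T cells, 7 were detected, all but Ncr1, at a summed signal of log2 13.1 to 13.3 in dendritic cells, against 11.4 to 11.5 in naive cells. All naive arrays also detected 4 of the 8, among them the perforin gene Prf1, which averaged log2 9.935 in dendritic cells and 9.891 in naive cells. The NK receptor Klre1 was at least 35.2-fold higher, at 10.53, 10.20 and 9.91, and the cytotoxic granule gene Nkg7 differed by 5.25 ± 0.30, whereas Cd8b1 was bright in both, at log2 9.98, 10.17 and 11.10 in dendritic cells, against 10.12, 10.13 and 10.28 in naive CD4 T cells. B cell markers were detected for 5 of 6, all but Pax5, with sums of 10.9 to 11.9 in dendritic cells and 7.4 to 8.2 in naive cells; Cd79b stood at 11.33, 10.42 and 10.14 and Blk was at least 16.5-fold higher. Of 5 plasma cell markers Mzb1 alone was detected, a gene also of plasmacytoid dendritic cells and B cells, at 11.40, 10.90 and 10.08. Erythroid markers varied most among replicates, with sums of 11.0, 13.3 and 12.9 on dendritic cell arrays 1 to 3, and the haemoglobin gene Hba-a1 at log2 10.77, 13.12 and 12.67 in dendritic cells, against 5.80, 5.94 and 7.59 in naive CD4 T cells. Platelet markers were detected for 0 of 7 on all dendritic cell arrays and basophil and mast cell markers for 1 of 7 (Cma1), beside Vwf and Esam of 9 stromal and endothelial markers. The regulatory T cell factor Foxp3 was detected in both groups and differed by -0.88 ± 0.17 on its brightest probe, without passing. However, 3 of its 4 tested probes passed as lower. Without both arrays numbered 3 the gene passed, at -1.01 (limma adjusted p = 0.000527).

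**Figure D3:**
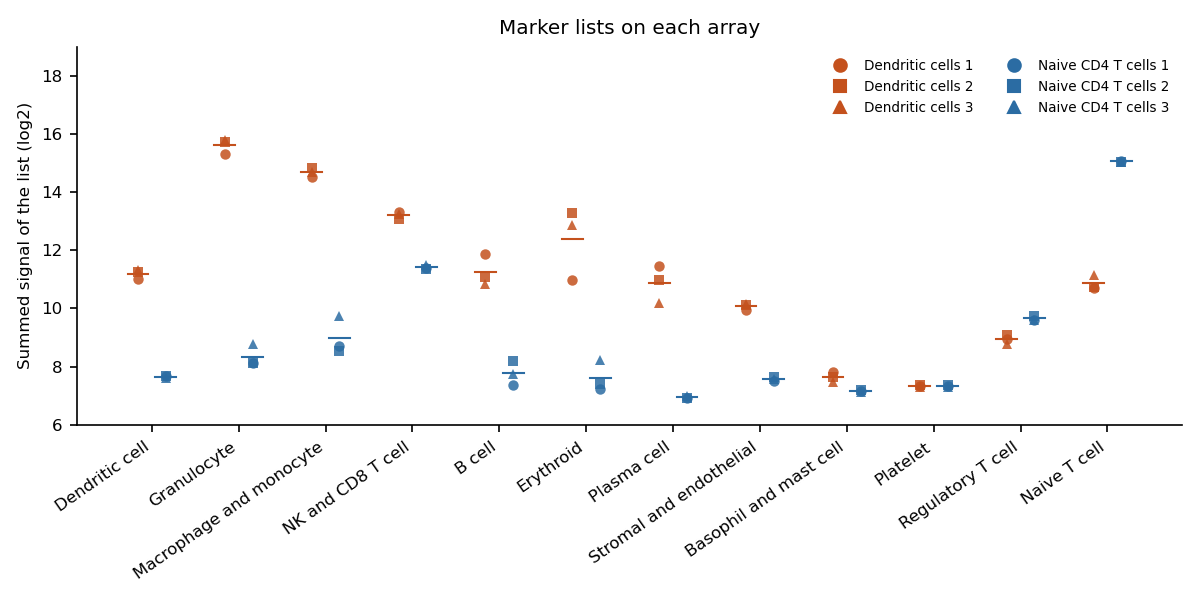
Summed signal of each marker list (y axis, log2 of the sum over the list's genes) on each array, dendritic cells in orange left of naive CD4 T cells in blue, with a marker shape per replicate and a line at the mean. Granulocyte markers reached log2 15.3 to 15.8 in dendritic cells, against 8.1 to 8.8 in naive cells, while platelet markers stayed at 7.3 to 7.4 in both groups; lists differ in length and probes, so that levels compare between arrays of a list and not between lists.

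Immediate early genes, which cells induce within minutes of a stimulus and also during tissue dissociation, were higher in 11 of 16 and lower in 0, with a median log2 difference of 1.40; 7 of the 12 detected on all 6 arrays were higher. The replicates disagreed. Fos had log2 13.29, 13.23 and 12.28 in dendritic cells, against 8.47, 8.73 and 12.07 in naive CD4 T cells, and Fosb had log2 11.24, 10.79 and 7.34 in dendritic cells, against 4.69, 4.93 and 7.78 in naive CD4 T cells. Both were lower on dendritic cell array 3 than on the other dendritic cell arrays, and higher on naive array 3 than on the other naive arrays; for Fosb the groups overlapped. The list's median was log2 11.3, 11.2 and 8.92 on dendritic cell arrays 1 to 3, against 8.34, 8.60 and 9.28 on the naive arrays. Dendritic cell array 3 lay at least log2 1 below both other dendritic cell arrays for 11 of the 16 genes (68.8%), against 1.42% of all genes tested, and naive array 3 at least 1 above both other naive arrays for 5 (31.2%), against 0.549% of all. Leaving out both arrays numbered 3, the differences were 4.66 (limma adjusted p = 3.87e-07) for Fos and 6.21 (limma adjusted p = 1.24e-06) for Fosb, against 3.17 ± 0.67 (SE; limma adjusted p = 0.000482) and 3.99 ± 0.92 (SE; limma adjusted p = 0.000953) with all arrays, and 13 of 16 members were higher.

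Further stress and activation genes were low on dendritic cell array 3, and some of them high on naive array 3. The heat shock gene Hspa1a had log2 12.60, 12.66 and 9.90 in dendritic cells, against 5.74, 4.20 and 10.45 in naive CD4 T cells, and Hspa1b had log2 10.08, 10.74 and 7.98 in dendritic cells, against 5.53, 4.45 and 8.97 in naive CD4 T cells. The groups overlapped for both, yet both passed, at 4.92 ± 1.07 (SE; limma adjusted p = 0.000585) and 3.29 ± 0.81 (SE; limma adjusted p = 0.00171). The 2 genes are near-identical copies that probes may not tell apart. Without both arrays numbered 3 Hspa1a differed by 7.66 and Hspa1b by 5.42. Of 8 heat shock genes 3 were higher and 5 did not pass, among them the constitutive chaperone Hspa8, at log2 12.80, 12.89 and 12.25 in dendritic cells, against 12.80, 13.06 and 12.77 in naive CD4 T cells. Atf3, a stress-induced repressor, stood at log2 10.65, 10.62 and 7.26 in dendritic cells, against 4.33, 4.26 and 4.23 in naive CD4 T cells, at least 21.6-fold higher, and Ier3 was at least 27.8-fold higher. The maturation marker Cd83 had log2 11.96, 11.997 and 10.22 in dendritic cells, against 5.84, 6.04 and 6.13 in naive CD4 T cells, and the NF-kappa-B inhibitor Tnfaip3 had log2 10.43, 9.97 and 7.93 in dendritic cells, against 7.38, 7.51 and 8.36 in naive CD4 T cells. Tnfaip3 overlapped between the groups, and its difference of 1.70 ± 0.52 (SE; limma adjusted p = 0.0081) was 2.76 without both arrays numbered 3 but did not pass without dendritic cell array 1, at 1.20 (limma adjusted p = 0.0607). Nfkbiz differed by 1.78 ± 0.35 (SE; limma adjusted p = 0.000208), and by 2.48 without them. The part of handling in these differences was not tested. The lineage genes Clec9a, Batf3 and H2-Eb1 showed no such drop on dendritic cell array 3, but 2 of 10 cDC2 genes did: Irf4 had log2 9.10, 8.81 and 7.59 in dendritic cells, against 5.64, 5.43 and 5.39 in naive CD4 T cells, and Klf4, a zinc finger factor, had log2 9.13, 9.07 and 7.38 in dendritic cells, against 4.91, 5.47 and 6.01 in naive CD4 T cells. Of 11 cDC1 genes 0 did.

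**Figure D4:**
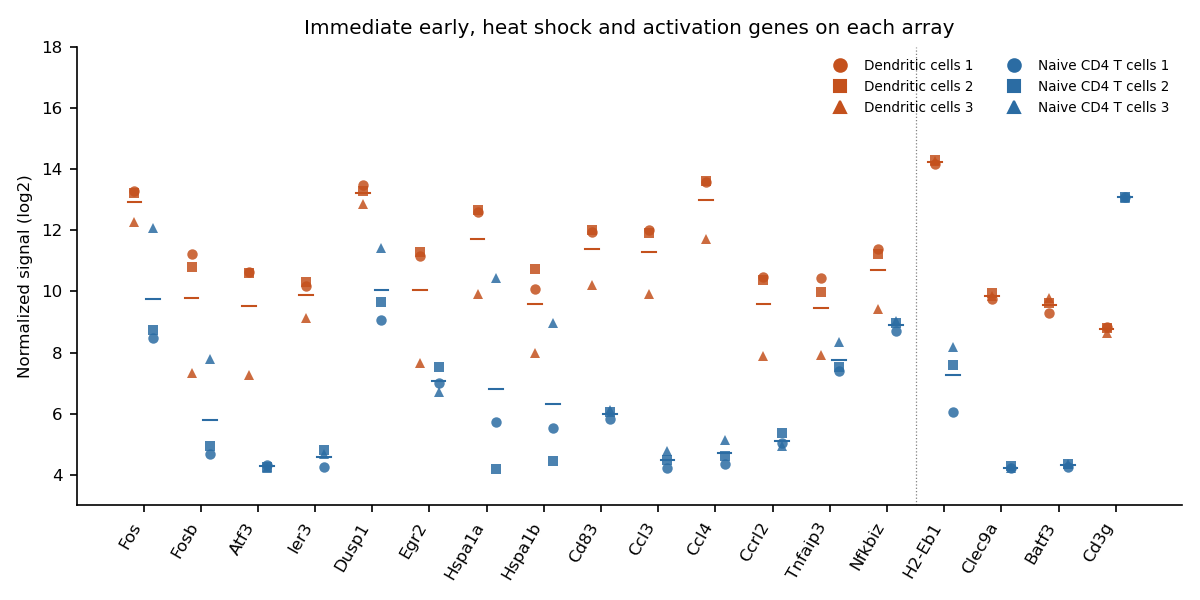
Normalized log2 signal (y axis) of 14 immediate early, heat shock and activation genes, chosen after their values were seen, and of 4 lineage genes right of the dotted line, on each array; dendritic cells in orange left of naive CD4 T cells in blue, lines at group means. Dendritic cell array 3 (triangle) lies below the other dendritic cell arrays for the 14 genes, while the 4 lineage genes are close together on the dendritic cell arrays.

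Iron handling and complement genes also varied by array. Of 14 oxidase, iron and redox genes 7 were higher and Rac2 was lower. Slc40a1, the iron exporter ferroportin of macrophages, had log2 11.09, 11.50 and 10.92 in dendritic cells, against 5.71, 4.95 and 8.48 in naive CD4 T cells. Its difference was 4.79 ± 0.53 (SE; limma adjusted p = 3.64e-07), and 5.96 without both arrays numbered 3. Slc11a1, a phagosomal metal transporter, differed by 4.39 ± 0.19 (SE; limma adjusted p = 6.19e-13), and Ncf1, a subunit of the phagocyte oxidase, was at least 5.45-fold higher. Hmox1, which degrades haem, overlapped at log2 7.24, 8.10 and 5.21 in dendritic cells, against 4.31, 4.29 and 5.28 in naive CD4 T cells, and ferritin Fth1 differed by 0.77 ± 0.13 without reaching 2-fold. Of 6 complement genes 4 were higher. Cfp, properdin, differed by 4.12 ± 0.17 (SE; limma adjusted p = 2.26e-13). C1qb had log2 8.38, 10.06 and 7.77 in dendritic cells, against 5.26, 4.69 and 6.72 in naive CD4 T cells, C1qc differed by 2.93 ± 0.45 and C1qa by 1.72 ± 0.37, and dendritic cell array 2 was the highest for all 3 C1q genes. Integrin subunits were higher in 5 of 13 and lower in 2, against 17.1% and 13.1% of all genes tested. Itgb5 was at least 3.81-fold higher, Itga6 at least 4.1-fold lower and Itgb7 differed by -2.12 ± 0.17. Itgal, the LFA-1 chain of leukocytes, did not pass at 0.24 ± 0.15.

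Cell cycle genes were higher in 12 of 18 and lower in 0, 8 of them among the 14 detected on all 6 arrays. Birc5, survivin, had log2 9.12, 9.18 and 9.49 in dendritic cells, against 5.42, 6.53 and 5.47 in naive CD4 T cells, a difference of 3.45 ± 0.25 (SE; limma adjusted p = 9.21e-10). Naive array 2 was the highest naive array for it. Tk1, Cdk1 and Bub1b differed by 3.41 ± 0.18, 3.20 ± 0.22 and 3.18 ± 0.25. The replicative helicase genes Mcm2, Mcm4 and Mcm7, by contrast, differed by 0.01, 0.25 and 0.11 and did not pass. Ccnd1, cyclin D1, was not in the list but among the largest differences of genes detected on all 6 arrays, at log2 11.96, 12.27 and 12.20 in dendritic cells, against 5.04, 5.52 and 6.32 in naive CD4 T cells. Also among these were Alox5ap, needed for leukotriene synthesis (6.77 ± 0.25), Hdc, which makes histamine (6.34 ± 0.30), and Ifitm1 and Ifitm2 (6.13 ± 0.19 and 6.20 ± 0.20).

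Machinery that reads or writes DNA methylation was higher for 2 of 15 genes and lower for 3, near the background of 9.54% and 13.4% among genes detected on all 6 arrays, as all 15 were. Uhrf1, which recruits the maintenance methyltransferase to replicating DNA and is itself highest in cycling cells, had log2 10.11, 10.15 and 10.52 in dendritic cells, against 6.12, 7.12 and 6.37 in naive CD4 T cells, a difference of 3.72 ± 0.21 (SE; limma adjusted p = 3.4e-11). Dnmt1, the maintenance methyltransferase, differed by 0.13 and did not pass. Tet1, which oxidises 5-methylcytosine, had log2 5.48, 5.29 and 5.22 in dendritic cells, against 7.16, 7.17 and 7.16 in naive CD4 T cells, a difference of -1.83 ± 0.11 (SE; limma adjusted p = 4.22e-11). Kmt2a, a histone H3 methyltransferase that binds unmethylated CpG, differed by -1.24 ± 0.18, Kdm2a by -1.12 and Kdm2b by 1.22 ± 0.15. Kmt2a fell short of 2-fold with median scaling (-0.79), and Kdm2b with an offset of 50, the authors' scaled signal, the mean over probes and both arrays numbered 3 left out (0.79 to 0.99). Cxxc1 differed by -0.71 ± 0.11 without passing, although 1 of its 2 tested probes passed as lower. Of 21 Polycomb genes 2 were higher and 5 lower, against 17.1% and 13.1% of all genes tested. The catalytic subunit Ezh2 had log2 9.13, 9.19 and 8.47 in dendritic cells, against 7.43, 7.78 and 7.46 in naive CD4 T cells, a difference of 1.38 ± 0.18 (SE; limma adjusted p = 2.06e-06), while the chromodomain protein Cbx7 had log2 6.47, 5.87 and 6.38 in dendritic cells, against 9.29, 8.61 and 8.92 in naive CD4 T cells, a difference of -2.70 ± 0.18 (SE; limma adjusted p = 2.2e-10). Pcgf6 differed by -1.55 ± 0.12 and Cbx2 was at least 2.16-fold lower (under 2-fold without background correction, with an offset of 50 and with the authors' signal), whereas Suz12, a core subunit, differed by -0.45 ± 0.15 and did not pass.

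Metabolic and housekeeping genes were mostly within 2-fold. Of 17 glycolysis genes 5 were higher and 2 lower, the share lower being near the 13.1% of all genes tested. Slc2a6, a lysosomal hexose transporter, was at least 31.7-fold higher and the hexokinase Hk3 at least 13-fold higher. Pfkfb4 and the glucose transporter Slc2a3 differed by 2.22 ± 0.17 and 1.97 ± 0.21. The hexokinase Hk1 and the muscle-type phosphofructokinase Pfkm were lower, by -1.21 and -1.57. Ldha differed by -0.81 ± 0.14 and did not pass. Of 11 sterol genes 1 was lower, against 13.1% of all genes tested, and 0 of the 10 detected on all 6 arrays passed. The lower gene, Dhcr7 (-1.31 ± 0.18), fell short of 2-fold under some settings. It differed by -0.89 without background correction, -0.81 with an offset of 50 and -0.91 with the authors' scaled signal. Fdps did not pass, at log2 9.21, 9.47 and 9.31 in dendritic cells, against 9.39, 9.54 and 9.71 in naive CD4 T cells, although 1 of its 2 tested probes passed as lower. Of 52 cytosolic ribosomal protein genes 2 were higher, 3 lower and 47 did not pass. The 2 higher genes, Rpl3l (at least 7-fold) and Rps4l (at least 2.82-fold), are copies of other ribosomal protein genes; Rpl19 and Rpl7a were lower (-1.20 ± 0.12 and -1.16 ± 0.24), both short of the threshold with median scaling, and Rps2 overlapped at log2 14.30, 14.37 and 14.29 in dendritic cells, against 14.52, 14.41 and 14.33 in naive CD4 T cells. Of 62 oxidative phosphorylation genes 3 were higher, Cox6a2, Atp5a1 and Sdhd, and 59 did not pass, including Atp5b at log2 13.27, 13.49 and 13.48 in dendritic cells, against 13.33, 13.33 and 13.21 in naive CD4 T cells. The Atp5a1 value (1.01 ± 0.18) rested on 1 probe, the mean over its detected probes was -0.18, and Sdhd and Cox6a2 were under 2-fold with an offset of 50 and with the authors' signal.

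Promoters were compared because the study set expression beside DNA methylation, which falls on CpG pairs. A window of 250 bases before to 50 after the start was available for 7305 of the 8929 genes, and was called CpG-rich if it held over 0.6 of the CpG pairs its base composition predicts and over 50% G and C. Of genes higher in dendritic cells 48.6% (586 of 1205) had a CpG-rich window, of genes lower 66.8% (645 of 965) and of genes that did not pass 74.6% (3830 of 5135). The share was 69.3% over all 7305 tested genes with a window, and 33.9% over the 27025 genes in the table, tested or not. Genes higher in dendritic cells were thus less often CpG-rich than the tested genes as a whole. Among genes detected on all 6 arrays the shares of higher, lower and other genes were 60.7%, 69.3% and 77.1%, against 74.6% of all 5751 such genes. These shares are a description, with no test.

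The CpG-rich share fell with the size of the difference in both directions. Of genes higher by under log2 1, 1 to 2, 2 to 4 and over 4, 73.2%, 58.2%, 45.9% and 25.3% were CpG-rich (1879, 581, 438 and 186 genes). On the lower side the same size steps gave 75.4%, 70.1% and 55.9%, and 3 of 15 genes for the largest. The order was the same among genes detected on all 6 arrays, with 76.2%, 67.3%, 55.9% and 22.2% for higher genes and 77.6%, 72.7% and 55.9% for lower genes, and 2 of 10 for the largest. Without these smallest bins the lower side still ran from 75.4% to 55.9%. Over all 7305 genes the share was 69.3%. By list, CpG-rich windows were found for 0 of 8 Fc and phagocytic receptor genes, 0 of 7 chemokine ligand genes, 0 of 6 GIMAP genes, 1 of 9 MHC class II genes and 2 of 15 T cell receptor genes. They were found for 18 of 19 Polycomb, 8 of 8 sterol, 34 of 43 ribosomal protein, 40 of 54 oxidative phosphorylation and 10 of 12 immediate early genes, for 7 of 15 MHC class I genes and for 2 of 17 interferon-stimulated genes. The share of a list did not follow its count of passing members throughout: 11 of 16 immediate early genes passed, against 1 of 18 MHC class I genes.

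**Figure D5:**
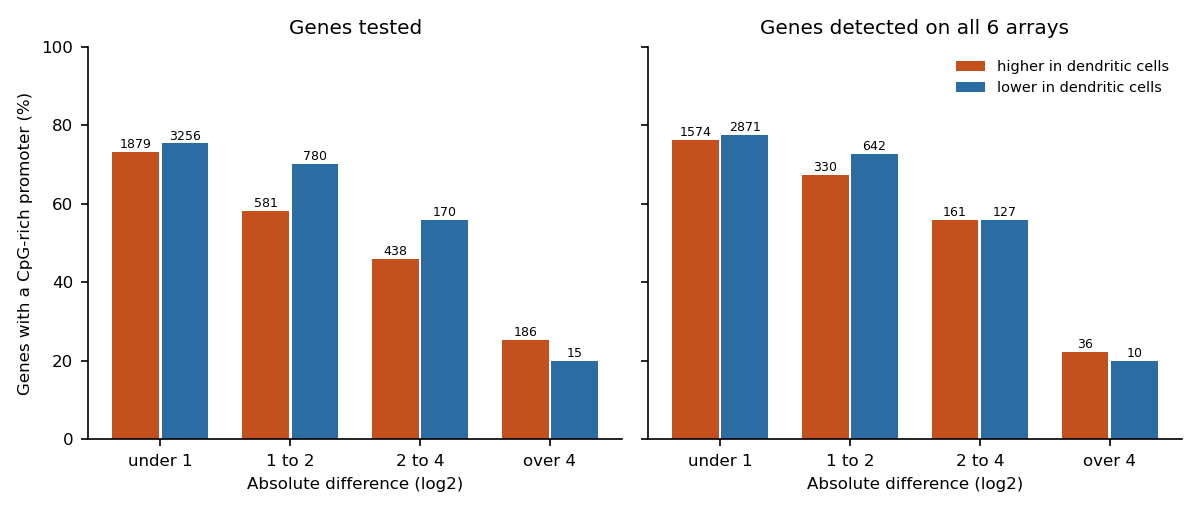
Share of genes with a CpG-rich promoter window (y axis, percent) by the size of the log2 difference (x axis), for genes higher in dendritic cells (orange) and lower (blue), among all genes tested (left) and those detected on all 6 arrays (right); numbers above bars count genes. The share falls from 73.2% or more for differences under log2 1 to 25.3% or less for those over 4, where the bars for lower genes hold 15 and 10 genes.

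Short motifs of immune factors were searched in the same windows on both strands. GAGGAAG, the core of sites bound by PU.1, was found in 17.8% of genes higher in dendritic cells, 13.6% of genes lower and 13.9% of all 7305. It occurs in the Batf3 sequence above. GAAANNGAA, an interferon response element core, was found in 9.71%, 7.25% and 7.38%, and TGANTCA, the AP-1 site, in 6.89%, 4.04% and 4.78%. GGGANTTTC, a kappa-B site, was rarer, in 1.91%, 0.622% and 1.08%. CTTTGAA, the core of TCF and LEF sites, was found in 3.65%, 3.11% and 3.66%. Over the 27025 genes in the table, the 5 motifs in this order were found in 13.5%, 8.57%, 7.93%, 1.15% and 5.27%. The AP-1 share of higher genes was thus below that of the whole table. Among genes detected on all 6 arrays, higher genes held them in 15.6%, 8.35%, 5.88%, 1.52% and 2.85%. All such genes held them in 13.5%, 7.06%, 4.295%, 0.904% and 3.69%. No tests were made on these shares, and a match describes letters only.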

How the data were processed

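TRI reagent gave total RNA, which was amplified to biotinylated cRNA (TotalPrep kit) and read on Illumina mouse arrays, per the labels. The submitters' processing notes list GenomeStudio. The deposited intensities, per the file headers, are average probe signals, on a linear scale with all values above 0 and no sign of background subtraction, and a detection p-value was deposited with each. The authors' scaled intensities equal these signals times 1 factor per array, giving a mean of 228.6 on each array, and served as an alternative; their medians were 41.2 to 56.3 on the 6 arrays. No source used here gives slides or scan dates.

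The platform annotation gives 1 symbol to 34885 of 45281 probes, several to 18 and lists 10378 not at all; gene IDs of 34807 matched the RefSeq table and 0 symbols changed. All 18 arrays were background-corrected (normexp, control level inferred from the detection p-values, offset 16), quantile-normalized and log2-transformed (limma 3.58.1, R 4.3.3), and fitted with 6 group means that share an estimate of spread (lmFit, eBayes). The probe with the highest mean over the 6 arrays stood for its gene, and 3452 genes had several tested probes. Python 3.11.15, pandas 2.3.3 and matplotlib 3.10.9 made lists and plots. The fit was tested on simulated data. Promoter windows came from RefSeq (GRCm38.p6), with 1 start per gene, although 1481 genes have several. In no pair of the 6 arrays did any of the 45281 probes have equal deposited signals.

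Genes named were the 10 largest differences up and down among passing genes with non-overlapping groups, the same among genes detected on all 6 arrays, up to 4 passing and 1 other member of each list, and Clec9a, Batf3 and Lef1; others are named where a count is small, after their values were seen. Members and lists were chosen with earlier results of these data known, and lists are described by counts, with no set test. Replicate numbers were not used as pairs in the main fit. Deviations from group means correlated at -0.046, 0.020 and -0.159 for equal numbers and at -0.286 to 0.236 for unequal numbers. With 3 arrays a group these values cannot tell whether samples of equal number were paired. Alternatives covered background, offset, scaling, the authors' values, arrays normalized and fitted, detection filter, probe choice, replicate block, variance model, array weights, fold threshold, promoter window and leaving out arrays.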

Additional observations from a re-analysis of the deposited data

How the results depend on the processing

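Of 160 named genes that passed, 145 passed under all 22 settings, and of 34 list counts 24 stayed within 1.5 times of the reported value under all of them. The count of lower genes was 770 without background correction, 703 with an offset of 50 and 649 with median scaling, and totals were 2003 and 1839 under the first pair. With the adjusted p alone 5789 genes passed, 2449 higher and 3340 lower. Among genes detected on all 6 arrays an offset of 50 left 620 lower, median scaling gave 1003 higher and 502 lower, and the adjusted p alone gave 4168, 1360 higher and 2808 lower. Leaving out 1 array at a time gave totals of 2613 to 2794, with 1525 to 1548 higher and 1087 to 1269 lower, and 1521 to 1693 among genes detected on all 6 arrays. With a replicate block in a fit of the 6 arrays, 2696 genes passed, 1527 higher and 1169 lower, and the block ended 1 named call, Hspa1b (log2 3.29, limma adjusted p = 0.056).

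Lists with small differences moved most. NF-kappa-B members higher numbered 4 without background correction, 4 with an offset of 50 and 4 with the authors' scaled signal, and integrin members higher 3 with the offset and 3 with the authors' signal. Polycomb members lower numbered 2 without background correction, with the offset and with the authors' signal, and 3 with median scaling and cyclic loess. With median scaling 3 cytokine receptor chains, 1 DNA methylation factor and 0 ribosomal protein genes were lower; the mean over probes gave 5 ribosomal protein genes lower. Oxidative phosphorylation genes higher numbered 1 without background correction, 0 with the offset and with the authors' signal, 5 with median scaling, 1 with array weights and 1 to 3 leaving out 1 array (1 without naive replicate 2 or dendritic cell replicate 1). With the adjusted p alone the counts were 5 interferon-stimulated, 7 DNA methylation, 11 Polycomb and 27 ribosomal protein genes lower, and 12 oxidase and iron, 8 integrin, 8 glycolysis and 13 oxidative phosphorylation genes higher. CpG-rich shares in the 250 upstream bases were 43.9% of higher, 62.2% of lower and 68.0% of other genes, and in the full window, among genes detected on all 6 arrays, 60.7% of higher and 77.1% of other genes. The causes were not tested, beyond the shared construction that an offset or uncorrected background shrinks differences of dim genes.

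Signs turned for members that had not passed, and for Atp5a1. With median scaling the log2 differences were Ly75 0.054, Birc2 0.076, Rela 0.37, Irf1 0.23, Btg1 0.29, Fdps 0.14, Hspa8 0.26 and Rps2 0.32. With cyclic loess they were Rela 0.14, Irf1 0.00045, Btg1 0.014 and Rps2 0.0054. The mean over probes gave Birc2 0.030, Btg1 0.025, Hspa8 0.36, Atp5a1 -0.18 and Cd8b1 -0.092, and the brightest probe over 18 arrays gave Cd8b1 -0.43. Btg1 was 0.081 with array weights, and without both arrays numbered 3 Btg1 was 0.17 and Cd8b1 -0.048. Leaving out 1 array gave -0.29 to 0.17 for Btg1 (turned without dendritic cell replicate 3), -0.10 to 0.46 for Cd8b1 (the same array), -0.17 to 0.0055 for Rela (without dendritic cell replicate 1) and -0.0044 to 0.37 for Tgfbr1 (without naive replicate 3).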

Other observations

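For 4 passing genes, named after their values were seen, another tested probe passed in the opposite direction, so the call depended on the probe chosen. Acp2, a lysosomal acid phosphatase, differed by log2 -2.51 ± 0.12 on its brightest probe, while 2 other probes were higher in dendritic cells. Pdcd4, which restrains translation, differed by -1.35 ± 0.20 with 1 other probe higher, Tpi1, a glycolytic enzyme, by 1.67 ± 0.18 with 1 other probe lower, and Atp5a1 by 1.01 ± 0.18 with 1 other probe lower. The groups of 18 passing genes overlapped, and Fosb, Jun, Egr3, Hspa1a, Hspa1b, Hmox1, Tnf and Tnfaip3 were among them. Jun stood at log2 8.65, 9.17 and 7.44 in dendritic cells, against 6.10, 6.04 and 7.71 in naive CD4 T cells, and Tnf, a cytokine gene, at log2 9.17, 9.18 and 7.60 in dendritic cells, against 7.29, 7.55 and 7.79 in naive CD4 T cells.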
